A study of Mus musculus with 55 samples.

Results

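The CTCF sites described here are those of untreated wild type mouse liver that were also called in liver of Setd8-LKO mice after TCPOBOP. They were chosen by the CTCF peak lists themselves: a wild type peak counted as kept when it overlapped a Setd8-LKO CTCF peak by at least 1 bp. Of the 5838 wild type CTCF peaks, 3392 were kept and 2446 were not, and the latter are called lost peaks. The kept share was 58.1%, with a 95% Clopper-Pearson interval of 56.8 to 59.4%. The Setd8-LKO list held 20905 CTCF peaks, of which 3372 overlapped a wild type peak and 17533 did not. Since CTCF in both conditions chose the sites, every CTCF value at them is a description.

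In Setd8-LKO mice (Setd8 lox/lox-AlbCre) a floxed exon of Setd8, the H4K20 monomethyltransferase also named Kmt5a, is removed by Cre under the hepatocyte-specific albumin promoter, so other liver cells keep the gene. These C57Bl6 males of 45 to 50 days received 1 intraperitoneal dose of 3 mg/kg TCPOBOP, a CAR agonist and hepatocyte mitogen, 24 h before the livers were taken. The controls were wild type males of the same age, labelled untreated, and the sources differ on whether they received vehicle, so genotype and treatment changed together and cannot be told apart. CTCF was measured in 4 wild type and 2 Setd8-LKO whole livers, Smc3 in 3 and 2, H3K27ac in 3 and 3, ATAC in nuclei of 3 and 5, and Lamin A/C in 4 and 4 libraries from nuclei, of which 2 wild type labels repeat a replicate number. H4K20me3 was measured in nuclei of 2 and 2. Each assay gave 1 peak list per condition. No spread between mice can therefore be given, no test between conditions was made, and every interval covers counting error over peaks only. The samples hold all cells of the liver, and signal in fewer cells cannot be told apart from less signal per cell.

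Raw gene-level RNA counts of Kmt5a were 453 to 740 in 5 untreated wild type and 1535 to 1871 in 4 TCPOBOP-treated Setd8-LKO RNA-seq libraries. They were not corrected for library depth. These counts run against the direction of a knockout, but they cover all exons and do not check the deletion of 1 exon, so the conditions are named by their labels. An H3K27ac peak lay within 1000 bp of a transcript start of 9 of 10 hepatocyte markers in wild type and 8 of 10 in Setd8-LKO (Tf, the remaining marker of the wild type count, was not matched in the annotation). Of 5 markers each, 2 and 3 had one for cholangiocytes, 2 and 2 for stellate cells, 2 and 2 for endothelial cells, and 0 in both conditions for Kupffer cells and for lymphocytes. An ATAC peak lay there for 6 hepatocyte markers in wild type and 4 in Setd8-LKO, for 1 and 0 of cholangiocytes, 0 and 1 of stellate cells, 1 and 0 of endothelial cells, and 0 in both conditions of Kupffer cells and lymphocytes.

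CTCF is a zinc finger protein that binds an asymmetric DNA motif. Cohesin, the ring complex that contains Smc3, moves along DNA and is held at CTCF, and the direction of the motif sets on which side it is held. Methylation of CpG in the motif can prevent CTCF from binding. H3K27ac marks active promoters and enhancers, ATAC-seq measures open chromatin, and Lamin A/C islands are broad domains in contact with the nuclear lamina.

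The sequences of 7 kept sites show the range of the group. Among kept sites at or above the median wild type CTCF enrichment, Smug1, Adprhl2 and Bptf are of the 5 with the largest ratio of Setd8-LKO to wild type enrichment, and Fbp2 and Cpsf4l of the 5 with the smallest. Cldn1 carried Smc3, H3K27ac and ATAC peaks in both conditions, and Mrc1 lies inside a Lamin A/C island in both. Each run is 151 bases around the wild type summit, 5′ to 3′ on the strand named, from the RefSeq genome of GRCm38 (mm10). Capitals mark the best match to the 12-base CTCF consensus with at most 1 mismatch, which the Bptf site lacks.
Smug1 site, chr15:103182230-103182380, plus strand: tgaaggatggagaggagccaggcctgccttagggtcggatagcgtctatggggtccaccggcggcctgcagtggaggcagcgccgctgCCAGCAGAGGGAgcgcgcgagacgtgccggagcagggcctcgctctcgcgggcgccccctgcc
Adprhl2 site, chr4:126321704-126321854, minus strand: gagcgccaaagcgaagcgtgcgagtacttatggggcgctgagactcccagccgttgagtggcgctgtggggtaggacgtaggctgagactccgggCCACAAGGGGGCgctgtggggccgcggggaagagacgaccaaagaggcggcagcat
Bptf site, chr11:107132196-107132346, plus strand: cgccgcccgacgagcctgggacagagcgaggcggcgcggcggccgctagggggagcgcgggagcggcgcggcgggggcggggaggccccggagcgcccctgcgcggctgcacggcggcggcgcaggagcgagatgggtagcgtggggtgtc
Cldn1 site, chr16:26371859-26372009, minus strand: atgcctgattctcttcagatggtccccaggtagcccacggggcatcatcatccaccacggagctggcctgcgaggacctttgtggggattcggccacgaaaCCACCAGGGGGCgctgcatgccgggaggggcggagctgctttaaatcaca
Fbp2 site, chr13:62854810-62854960, minus strand: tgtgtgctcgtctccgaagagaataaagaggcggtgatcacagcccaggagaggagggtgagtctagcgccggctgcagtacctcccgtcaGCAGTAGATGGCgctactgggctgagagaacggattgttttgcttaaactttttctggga
Cpsf4l site, chr11:113703795-113703945, plus strand: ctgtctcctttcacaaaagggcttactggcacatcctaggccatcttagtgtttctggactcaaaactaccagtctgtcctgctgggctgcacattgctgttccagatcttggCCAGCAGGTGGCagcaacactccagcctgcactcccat
Mrc1 site, chr2:14295501-14295651, minus strand: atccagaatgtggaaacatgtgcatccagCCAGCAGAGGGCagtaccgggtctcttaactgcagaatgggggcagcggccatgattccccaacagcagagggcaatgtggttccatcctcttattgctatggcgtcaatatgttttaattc
The GC content of these runs was 72.2% for Smug1, 66.2% for Adprhl2, 82.8% for Bptf and 61.6% for Cldn1. It was 54.3% for Fbp2, 53.0% for Cpsf4l and 50.3% for Mrc1. The Bptf run held 27 CG dinucleotides, the Smug1 run 15 and the Cpsf4l run 0.

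Base composition separated kept from lost peaks. In the 201 bases around the wild type summit, the median GC content was 58.2% at kept sites (quartiles 54.7 and 63.7%) and 50.2% at lost peaks (quartiles 47.8 and 52.2%). The kept share was 7.06% of the 269 wild type peaks below 45% GC, 12.4% of 1090 at 45 to 50%, 40.2% of 1798 at 50 to 55%, 87.9% of 1359 at 55 to 60% and 99.7% of 610 at 60 to 65%. All 711 wild type peaks of 65% GC and over were kept. The median wild type fold enrichment lay between 12.3 and 12.7 in all 6 GC classes. The classes were set after values had been seen, and kept status itself chose the sites, so these shares carry no test.

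The gradient was also present away from transcript starts and with the motif held fixed. Among peaks farther than 1000 bp from a transcript start, the kept share was 3.81% below 45% GC, 36.9% at 50 to 55%, 86.4% at 55 to 60% and 99.3% at 60 to 65%. Among such distal peaks with the consensus, it was 4.17% of 192 below 45% GC and 99.5% of 192 at 60 to 65%. Among promoter peaks, within 1000 bp of a start, it was 30.3% of 33 below 45% GC and 100% of 324 at 60 to 65%. The observed to expected ratio of CpG had a median of 0.476 at kept sites and 0.228 at lost peaks, and of 0.349 and 0.227 among distal ones.

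**Figure D1:**
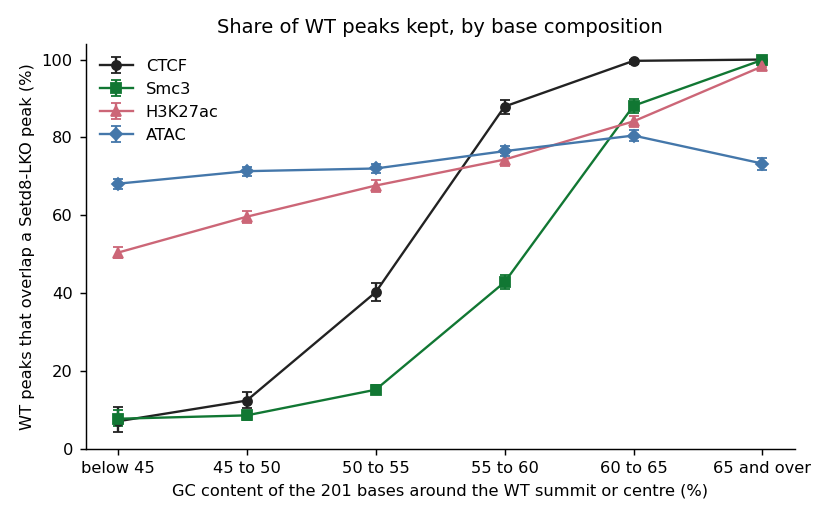
Share of wild type peaks that overlap a Setd8-LKO peak of the same assay (y axis, %) by GC content of the 201 bases around the wild type summit or centre (x axis, %), with 95% Clopper-Pearson intervals, for CTCF, Smc3, H3K27ac and ATAC. CTCF and Smc3 go from 7.06 and 7.72% below 45% GC to 100 and 99.9% at 65% and over, H3K27ac goes from 50.4 to 98.3%, and ATAC lies between 68.1 and 80.5%.

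The same share was taken over the whole lists of the other assays. Of the 13045 wild type Smc3 peaks, 42.5% overlapped a Setd8-LKO Smc3 peak, with 7.72% below 45% GC, 42.8% at 55 to 60% and 99.9% at 65% and over. For H3K27ac the share was 50.4% below 45% GC and 98.3% at 65% and over. For ATAC it was 68.1% below 45% GC, 80.5% at 60 to 65% and 73.3% at 65% and over. The median GC content of all CTCF peaks was 54.2% in wild type and 64.7% in Setd8-LKO, and that of all Smc3 peaks 54.7 and 67.7%. It was 58.7 and 61.7% for H3K27ac and 52.2% in both ATAC lists. GC content moved with the calls of CTCF and Smc3 in this way, and its part in the results that follow was not tested. Values within GC classes are given beside some of them, and the other results are not split by GC content.

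At kept sites CTCF enrichment was mostly higher in Setd8-LKO. MACS2 fold enrichment, the signal at the summit over the local background, had a median of 12.7 in wild type (quartiles 10.4 and 15.2) and 39.8 in Setd8-LKO (quartiles 21.1 and 71.2). It was higher in Setd8-LKO at 3152 of 3392 sites, at least 2-fold higher at 2340, and at most 0.5 times the wild type value at 9. The median ratio per site was 3.21. It was 1.25 at the 135 sites of 45 to 50% GC, 1.56 at 50 to 55%, 2.55 at 55 to 60%, 4.96 at 60 to 65% and 6.31 at 65% and over. Across 3391 sites, all read from the same 2 lists, Spearman's rho with GC content was 0.77 for Setd8-LKO fold enrichment and -0.0035 for wild type fold enrichment. The 17533 Setd8-LKO peaks without a wild type peak had a median fold enrichment of 12.1 (quartiles 10.5 and 16.3). Lost peaks had a median of 12.4 in wild type.

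**Figure D2:**
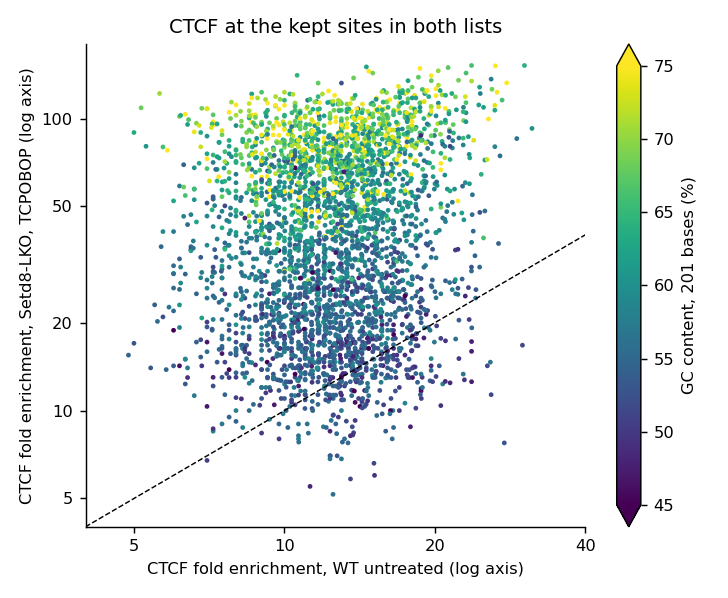
CTCF fold enrichment at each kept site in wild type (x axis, log scale) and Setd8-LKO (y axis, log scale), coloured by GC content of the 201 bases around the summit, with the line of equal values dashed. Values reach 31.3 in wild type and 151.9 in Setd8-LKO, and 3152 of the 3392 sites lie above the line, with the GC-rich sites at the top.

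Ratios of single sites ranged from 0.282 to 21.7 over all kept sites. The largest and smallest ratios named here are of sites at or above the median wild type enrichment. At Adprhl2, an ADP-ribosyl hydrolase gene, CTCF fold enrichment 76 bp from the start was 14.6 in wild type and 150.3 in Setd8-LKO, and Smc3 was 16.2 and 129.8. At the start of Bptf, the large subunit of the NURF remodeller, CTCF was 14.8 and 145.2 and Smc3 37.0 and 133.0. The Smug1 site, 15213 bp from a start and outside genes, had CTCF of 13.8 and 137.7. All 3 thus had a ratio near 10 without standing out in wild type. Among the sites with the highest wild type CTCF, those at Rbm17, Sh3glb1 and Myrf had 31.3, 30.2 and 27.8 in wild type and 92.5, 151.9 and 132.4 in Setd8-LKO. The site at the pseudogene Gm13996 had 29.9 and 16.7, a ratio of 0.559. At Fbp2, a fructose-bisphosphatase gene, the intronic site went from 25.9 to 11.3 and had Smc3 in wild type only. At Cpsf4l it went from 13.6 to 5.83, and Smc3 from 15.5 to 8.

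The kept share had no steady order over the wild type strength of a peak. With the wild type peaks ranked by fold enrichment and cut into 4 groups of near equal size, from the weakest to the strongest, 60.3, 53.4, 54.0 and 64.4% of the peaks were kept, so the strongest group was kept most often. The median wild type −log10 p was 33.5 at kept and 30.3 at lost peaks, and the median wild type width 227 and 202 bp. The summits of the 2 conditions lay a median of 24 bp apart, and 2745 sites (80.9%) had them within 50 bp. The Setd8-LKO peaks at these sites had a median width of 403.5 bp, and 21 Setd8-LKO peaks covered more than 1 wild type peak. At the edge of the rule, the smallest overlap was 14 bp, and the 6 sites with at most 50 bp had a median fold enrichment of 11.7 in wild type and 20.5 in Setd8-LKO. On the other side, 28 lost peaks lay within 200 bp of a Setd8-LKO peak, the nearest at 15 bp, with a median wild type fold enrichment of 11.97. By chromosome, between 51.7% (chromosome 14) and 62.6% (chromosome 11) of the wild type peaks were kept.

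Kept sites lay at transcript starts more often than lost peaks. The summit of 1398 kept sites (41.2%, interval 39.6 to 42.9%) was within 1000 bp of a transcript start in GENCODE M21, against 10.2% of lost peaks and 28.2% of all wild type CTCF peaks. The difference between kept and lost was 31.0 percentage points (Newcombe 95% interval 28.9 to 33.0). Among kept sites, 205 summits lay in coding sequence (6.04%), 321 in a UTR (9.46%), 1182 in an intron (34.8%) and 1517 outside genes (44.7%). Over all wild type CTCF peaks these shares were 3.87, 6.83, 39.1 and 45.8%, so the share outside genes was near that of the whole list. At the promoter sites the wild type summit was upstream of the start at 957 of 1398 (68.5%), with a median of 58 bp upstream.

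The 12-base CTCF consensus was found within 100 bp of the summit, on either strand and with at most 1 mismatch, at 2172 kept sites (64.0%, interval 62.4 to 65.7%). It was found at 75.9% of lost peaks and 69.0% of all wild type CTCF peaks, while windows moved by 2000 bp from the kept summits held it in 2.98%. Kept sites thus had it less often than lost peaks, with a difference of -11.8 points (interval -14.2 to -9.49). The difference was -19.7 points at promoters and -4.05 points (interval -6.70 to -1.41) at distal sites. Within GC classes the distal difference was small and changed direction. At 50 to 55% GC, 36.1% of distal wild type peaks with the consensus and 39.5% of those without it were kept. At 55 to 60% GC these shares were 87.1 and 84.3%. The 17533 Setd8-LKO peaks without a wild type peak held it in 13.9%. The core of the motif was also searched on either strand, in the form AGGGGGC, in the form AGGTGGC, in the form AGAGGGC or in the form AGATGGC, all of which overlap the consensus. At least 1 of these forms was present at 67.4% of kept sites and in 18.7% of the moved windows. It was present at 71.5% of lost peaks and 69.1% of all wild type CTCF peaks, so the kept share was slightly below both. The middle of the match lay a median of 18.5 bp from the summit.

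Position and motif divide the kept sites into 4 classes. There were 731 promoter sites with the consensus, 667 promoter sites without it, 1441 distal sites with it and 553 distal sites without it. Their median wild type fold enrichment was 12.7, 12.7, 12.4 and 12.7, in that order. In Setd8-LKO it was 59.4, 69.1, 26.4 and 31.6, so promoter sites stood above distal sites with and without the consensus. The median GC content of the classes was 61.2, 64.2, 56.2 and 56.7%. Of all wild type CTCF peaks of each class, 80.2, 90.5, 46.2 and 51.5% were kept.

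Smc3 was present at most kept sites in wild type and at fewer in Setd8-LKO. A wild type Smc3 peak overlapped 2836 kept sites (83.6%, interval 82.3 to 84.8%), against 75.1% of all wild type CTCF peaks. A Setd8-LKO Smc3 peak overlapped 2196 (64.7%, interval 63.1 to 66.3%), against 39.3% of all wild type CTCF peaks, although the Setd8-LKO Smc3 list was longer (21615 peaks against 13045) and its peaks wider. Both lists had Smc3 at 1963 kept sites, wild type alone at 873, Setd8-LKO alone at 233 and neither at 323. The 873 sites with wild type Smc3 alone lay at promoters in 13.9%, against 53.4% of the 1963 sites with Smc3 in both. At lost peaks Smc3 was present in 63.2% in wild type and 3.97% in Setd8-LKO. Kept and lost peaks thus differed by 20.4 points in wild type (interval 18.1 to 22.6) and 60.8 points in Setd8-LKO (interval 58.9 to 62.5). Within 55 to 60% GC, the Setd8-LKO shares were 53.2% of kept and 3.66% of lost peaks, a difference of 49.6 points (interval 44.6 to 53.0). Within 50 to 55% GC they were 34.4 and 4.47%, a difference of 29.97 points (interval 26.3 to 33.7). The wild type differences in these classes were 12.1 and 9.62 points.

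Promoter and distal sites parted in Smc3. At promoter sites Smc3 was present in 83.6% in wild type and 87.2% in Setd8-LKO, beside 81.4 and 75.2% of all wild type CTCF peaks there. At distal sites it was present in 83.6% (1667 of 1994) in wild type and 49.0% (977 of 1994) in Setd8-LKO, beside 72.6 and 25.1% of all distal wild type CTCF peaks. When only as many Setd8-LKO Smc3 peaks were used as the wild type list holds, an alternative chosen after seeing the data, the Setd8-LKO shares were 78.9% at promoter and 27.9% at distal sites, so the promoter share was then below the wild type one. Of the sites with wild type Smc3 at 55 to 60% GC, 80.4% of 255 promoter and 50.5% of 735 distal sites also had it in Setd8-LKO. At 65% GC and over, all 484 promoter and all 142 distal sites with wild type Smc3 also had it in Setd8-LKO.

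**Figure D3:**
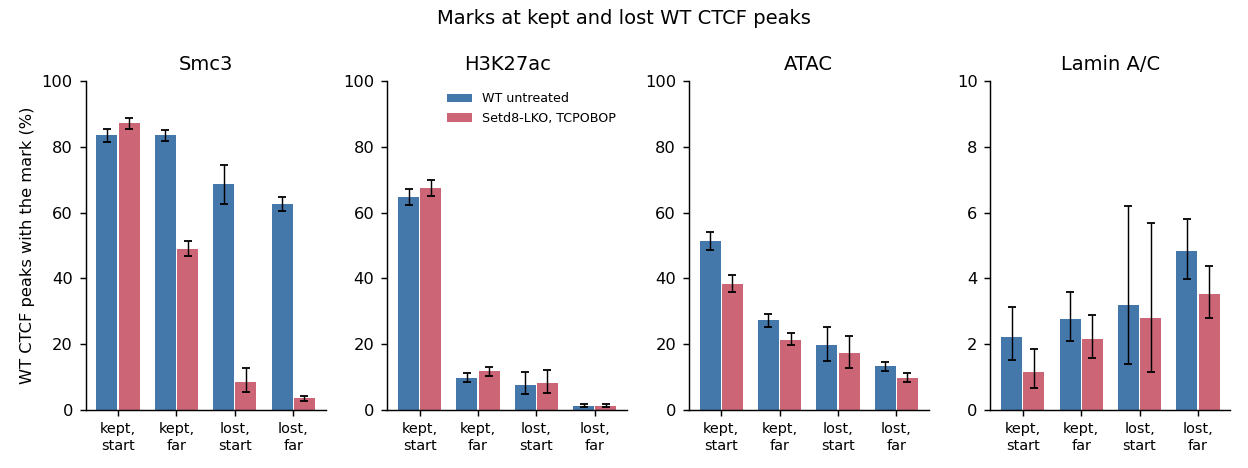
Share of kept and lost wild type CTCF peaks (y axis, %, with a scale of its own for Lamin A/C) that overlap a peak or island of each mark in wild type and Setd8-LKO, within 1000 bp of a transcript start ("start") or farther away ("far"), with 95% Clopper-Pearson intervals. Smc3 is at 83.6 and 49.0% of distal kept sites and at 62.6 and 3.46% of distal lost peaks, and H3K27ac at 64.7 and 67.5% of kept promoter sites.

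The amount of Smc3 showed the same division. At the 1963 kept sites with Smc3 in both lists, its median fold enrichment was 17.4 in wild type and 59.0 in Setd8-LKO, with a median ratio of 3.42. The ratio was 5.11 at 1048 promoter sites and 1.47 at 915 distal sites, and Smc3 was higher in Setd8-LKO at 93.0 and 67.9% of them. At distal sites the median ratio was 0.91 at 50 to 55% GC, 1.14 at 55 to 60%, 2.06 at 60 to 65% and 6.05 at 65% and over. At promoter sites it was 2.72, 2.44, 4.41 and 6.60 in the same classes. Over all peaks of the lists, the median Smc3 fold enrichment was 13.0 in wild type and 29.5 in Setd8-LKO. Across the 1963 sites, CTCF and Smc3 fold enrichment had a Spearman's rho of 0.19 in wild type and 0.67 in Setd8-LKO. Over all kept sites with sequence, Setd8-LKO CTCF fold enrichment had a rho of 0.77 with GC content. The part of GC content in the value of 0.67 was not tested.

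**Figure D4:**
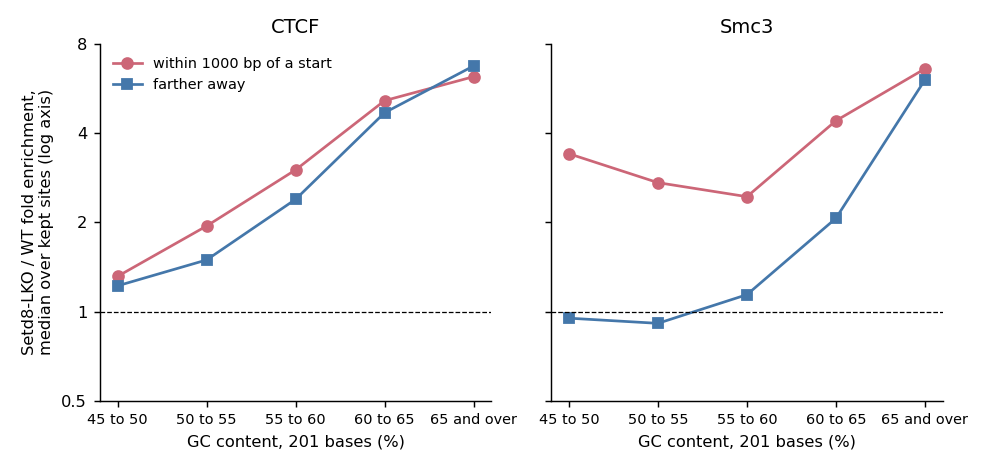
Median ratio of Setd8-LKO to wild type fold enrichment (y axis, log scale) of CTCF and of Smc3 at kept sites by GC content of the 201 bases around the summit (x axis, %), for sites within 1000 bp of a transcript start and farther away. CTCF ratios go from 1.31 to 6.205 at promoter and from 1.22 to 6.74 at distal sites, and Smc3 ratios of distal sites from 0.95 to 6.05.

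The position of Smc3 relative to the motif was measured at kept sites with a single consensus match. In wild type the Smc3 summit lay downstream of the middle of the consensus, in its reading direction, at 1013 of 1689 sites (59.98%, interval 57.6 to 62.3%), with a median of 8.5 bp downstream. In Setd8-LKO it lay downstream at 766 of 1192 sites (64.3%, interval 61.5 to 67.0%), with a median of 22.5 bp. The spread was wider in Setd8-LKO, where 846 sites (71.0%) had the summit within 100 bp of the consensus, against 1652 (97.8%) in wild type. Smc3 peaks were also wider there, with a median of 795 bp against 387 bp at sites with Smc3 in both lists. At promoter sites the Smc3 summit was upstream of the transcript start at 770 of 1169 sites (65.9%, interval 63.1 to 68.6%) in wild type and at 538 of 1219 (44.1%, interval 41.3 to 47.0%) in Setd8-LKO. CTCF summits were upstream at 68.5 and 64.9% of the promoter sites. Neighbouring kept sites with 1 match each were convergent in 498 pairs (25.4%), divergent in 498 (25.4%) and on the same strand in 965 (49.2%) of 1961. Their median distances were 309, 278 and 267 kb. The match was on the plus strand at 969 of 1981 sites (48.9%), and convergent pairs were no more frequent than divergent ones.

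**Figure D5:**
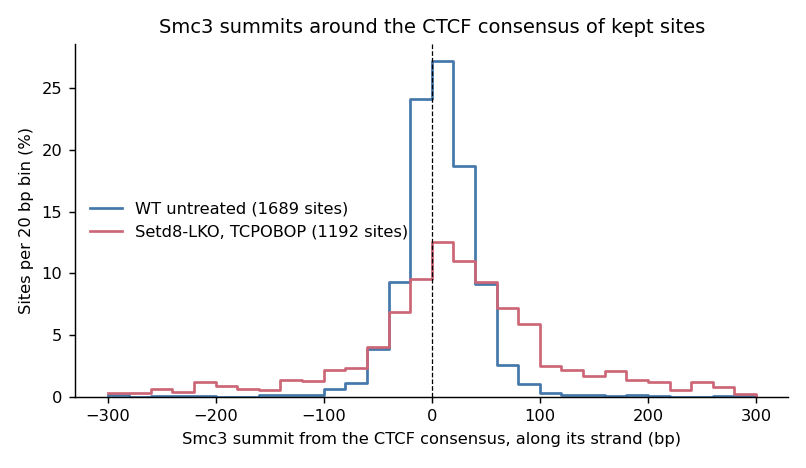
Distance of the Smc3 summit from the middle of the CTCF consensus along the consensus strand (x axis, bp, positive downstream), as the share of sites per 20 bp bin (y axis, %), at kept sites with 1 consensus match and an Smc3 peak, 1689 in wild type and 1192 in Setd8-LKO. The wild type summits gather near the consensus with a median of 8.5 bp, and the Setd8-LKO summits spread more widely with a median of 22.5 bp.

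H3K27ac differed little between the conditions at kept sites. It overlapped 1099 (32.4%, interval 30.8 to 34.0%) in wild type and 1176 (34.7%, interval 33.1 to 36.3%) in Setd8-LKO, against 19.6 and 20.9% of all wild type CTCF peaks. Of the 1099 sites, 1067 (97.1%) had it in both lists, 32 in wild type alone, and 109 others in Setd8-LKO alone. Over the whole list, 77.7% of the 27983 wild type H3K27ac peaks overlapped a Setd8-LKO one. By GC content, 171 of 180 kept sites with wild type H3K27ac at 55 to 60% GC also had it in Setd8-LKO, beside 74.3% of all wild type H3K27ac peaks of that class, and 577 of 583 (99.0%) at 65% and over, beside 98.3%. At promoter sites it was present in 64.7 and 67.5%, beside 56.1 and 58.5% of all wild type CTCF peaks there, and at distal sites in 9.73 and 11.6%, beside 5.25 and 6.16%. Lost peaks carried it in 1.84 and 1.88%. At 55 to 60% GC it was present at 15.1% of kept and 1.22% of lost peaks in wild type, a difference of 13.8 points (interval 10.2 to 16.2). At 50 to 55% GC the difference was 7.08 points (interval 4.98 to 9.46). Among distal peaks it was 4.88 points at 55 to 60%, 1.76 at 50 to 55% and -0.325 at 45 to 50% GC. The last has an interval (-1.59 to 3.96) that includes 0. H3K27ac fold enrichment at the 1067 sites had a median of 36.6 in wild type and 39.0 in Setd8-LKO, with a median ratio of 1.04. Over all peaks of the H3K27ac lists the medians were 11.5 and 11.5, so the peaks at these sites were stronger than the list they are set beside. At the 32 sites with wild type H3K27ac alone its median was 10.6. The 1067 sites had a median Setd8-LKO CTCF fold enrichment of 74.5, against 26.4 at the 2184 sites with H3K27ac in neither list, and their wild type CTCF values were 13.0 and 12.5. These 2 groups also differed in position and motif, with 83.1 and 20.0% at promoters and 46.4 and 72.8% with the consensus. The part of position and GC content in the CTCF values was not tested.

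ATAC peaks overlapped 1260 kept sites (37.1%, interval 35.5 to 38.8%) in wild type and 962 (28.4%, interval 26.8 to 29.9%) in Setd8-LKO, against 27.4 and 20.9% of all wild type CTCF peaks. The lists differed in length, and with equal numbers of ATAC peaks the wild type share was 30.7%. Both lists had ATAC at 899 sites, wild type alone at 361, Setd8-LKO alone at 63 and neither at 2069. The share of the 1260 sites that also had ATAC in Setd8-LKO was 71.3%, near the 73.0% of all 27307 wild type ATAC peaks. At promoter sites the shares were 51.4 and 38.3%, beside 46.5 and 35.1% of all wild type CTCF peaks there, and at distal sites 27.2 and 21.4%, beside 19.8 and 15.3%. Lost peaks had ATAC in 13.8 and 10.5%, so they too had fewer ATAC peaks in Setd8-LKO. At 55 to 60% GC the wild type shares were 34.9% of kept and 19.5% of lost peaks. ATAC fold enrichment at the 899 sites had a median of 7.58 and 7.04, with a median ratio of 0.935. The ATAC peaks at hepatocyte markers also went from 6 to 4 of 10, and the part of cell composition in these shares was not tested.

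Few kept sites lay inside Lamin A/C islands. There were 86 (2.54%, interval 2.03 to 3.12%) in wild type and 59 (1.74%, interval 1.33 to 2.24%) in Setd8-LKO, against 3.43 and 2.45% of all wild type CTCF peaks. The islands covered 849.8 Mb (31.2% of the genome) and 757.6 Mb (27.8%), so kept sites were rarer in them than their length alone would give. Kept sites outside islands lay a median of 2519 and 2896 kb from the nearest one. Of the kept sites, 50 were inside in both conditions, 36 in wild type alone and 9 in Setd8-LKO alone. Lost peaks lay inside in 4.66 and 3.43%, and the difference of kept from lost was -2.13 points in wild type (interval -3.15 to -1.16). At 50 to 55% GC the wild type shares were 2.63% of kept and 3.07% of lost peaks, a difference of -0.442 points whose interval (-1.97 to 1.24) includes 0. The 50 sites inside islands in both conditions had Smc3 in 28 (56%) in wild type and 22 (44%) in Setd8-LKO, H3K27ac in 8 (16%) and 10 (20%), and ATAC in 17 (34%) and 12 (24%). At the 3297 kept sites outside islands in both conditions, the shares were 84.3 and 65.2% for Smc3, 32.7 and 34.8% for H3K27ac, and 37.1 and 28.3% for ATAC. At the Mrc1 site, in an intron of the mannose receptor gene, CTCF fold enrichment was 18.8 and 11.7 and Smc3 16.5 and 32.4, with no H3K27ac or ATAC peak. H4K20me3 islands, which mark silent chromatin, held 22 kept sites in wild type and 44 in Setd8-LKO, against 0.874 and 1.78% of all wild type CTCF peaks.

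Read together, 1884 kept sites (55.5%) had the same state of Smc3, H3K27ac and ATAC in both conditions, beside 37.8% of lost peaks and 48.1% of all wild type CTCF peaks. Among them, 369 (10.9% of kept sites) had all 3 marks in both conditions, beside 1 lost peak and 6.34% of all wild type CTCF peaks. Another 272 (8.02%) had none in either, beside 32.8% of lost peaks and 18.4% of all wild type CTCF peaks. The most frequent state in wild type was Smc3 without H3K27ac or ATAC, at 1352 sites (39.9%), and 785 sites (23.1%) had it in Setd8-LKO. Sites with none of the 3 marks numbered 340 (10.02%) in wild type and 984 (29.0%) in Setd8-LKO, beside 33.6 and 85.2% of lost peaks and 19.9 and 52.6% of all wild type CTCF peaks. Of the sites with all 3 marks in both conditions, the one with the highest wild type Smc3 lay 186 bp from the start of Gins4, a subunit of the replicative helicase complex, with Smc3 of 45.0 and 105.3 and CTCF of 17.7 and 134.8. At the start of Cldn1, a tight junction gene, Smc3 was 37.0 and 83.2 and CTCF 18.3 and 53.9.

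The gene lists were chosen with earlier results known and are described by their counts. Among protein-coding genes, 5.94% had a kept site within 1000 bp of a transcript start and 16.6% within 10000 bp of the gene. Of 18 chromosome structure genes, 6 had a kept site at a start and 7 within 10000 bp. At Ctcf itself CTCF fold enrichment was 13.3 in wild type and 93.3 in Setd8-LKO, with Smc3 of 14.9 and 121.4. At Smc3, which encodes the cohesin subunit, CTCF was 14.5 and 24.3, with an Smc3 peak in Setd8-LKO alone. The cohesin subunit Stag1 and the cohesin regulator Pds5a each had 2 kept sites that share 1 Setd8-LKO peak, of 74.8 at Stag1 and 69.5 at Pds5a. Pds5b, also a cohesin regulator, had 14.0 and 94.2, and Kmt5b, an H4K20 methyltransferase, 15.0 and 74.5. All 6 starts carried H3K27ac and Smc3 peaks in Setd8-LKO. The site of the seventh gene, Lmna, which encodes Lamin A/C, lay 4861 bp from a start, with CTCF of 10.7 and 49.4, Smc3 of 11.4 in wild type and no peak in Setd8-LKO, and no H3K27ac in either condition. Kmt5a, which encodes Setd8, had no kept site within 10000 bp.

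Of 12 cell cycle and stress genes, 3 had a kept site at a start. CTCF fold enrichment was 24.6 and 47.7 at Trp53, which encodes p53, 9.33 and 68.3 at Mdm2, its ubiquitin ligase, and 20.2 and 60.7 at Ccnd1, which encodes cyclin D1. Smc3 at the Trp53 site was 18.8 in wild type and 11.5 in Setd8-LKO, while at Ccnd1 it was 20.8 and 72.6. Cdkn1a, the p21 inhibitor, had a site 1860 bp from a start, with CTCF of 15.8 and 95.2.

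Of 20 hepatocyte genes, of which 19 were in the annotation, 1 had a kept site at a start and 5 within 10000 bp. At the start of Cebpa, a hepatocyte transcription factor, CTCF fold enrichment was 14.0 and 92.1 and Smc3 16.8 and 152.7. Apoa2, an apolipoprotein gene, and Nr1i3, which encodes CAR, share 1 site with CTCF of 9.75 and 8 and Smc3 of 15.0 and 14.2. Igf1, a growth factor gene, had CTCF of 13.8 and 10.7 and Smc3 of 21.9 and 48.3. At Hnf4a, a hepatocyte transcription factor gene, CTCF was 7.4 and 16.2 and Smc3 10 and 22.3. CTCF was thus lower in Setd8-LKO at 2 of the 5 distinct sites of this list, and it was not higher in Setd8-LKO at 240 of all 3392 kept sites (7.08%).

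Of 20 imprinted genes, 0 had a kept site at a start and 2 had one within 10000 bp, Kcnq1 (CTCF of 9.99 and 44.0) and the growth inhibitor Cdkn1c (8.60 and 52.3). Of 39 Hox genes, 2 had one at a start and 10 within 10000 bp, from 4 distinct sites. The site 23 bp from the start of Hoxa7 had CTCF of 9.17 and 104.6, and the site 96 bp from that of Hoxb5 had 10.3 and 40.3, both with Smc3 and without H3K27ac in both conditions. Of 10 housekeeping genes, 1 had a kept site at a start, Actb, with CTCF of 6.2 and 102.5. In the 707.7 kb from Naaa to Shroom3 (chr5:92257659-92965318), 2 of 5 wild type CTCF peaks were kept, and 6 Setd8-LKO peaks had no wild type peak. The kept sites lay at the starts of Sdad1 (CTCF 9 and 19.3, Smc3 15.4 and 37.6) and Scarb2 (CTCF 14.3 and 42.4, Smc3 31.3 and 92.6), and both carried H3K27ac in both conditions.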

How the data were processed

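Chromatin was measured by ChIP-seq (CTCF, Smc3, H3K27ac), ATAC-seq and CUT&Tag (Lamin A/C, H4K20me3) in mouse liver. The authors trimmed reads with Trimmomatic 0.39, aligned them with HISAT2 to mm10, removed duplicates, low mapping quality and blacklisted regions, reduced ChIP and CUT&Tag reads in proportion to the smallest sample, and called peaks with MACS2 2.2.7.1 and broad islands with SICER. How replicates were combined into the deposited list of each condition is not given in the sources used here, and the lists hold no read totals. The study states an average sequencing depth for ChIP-seq and for CUT&Tag, but the reads behind each list or peak are not known from it. The deposited peak lists give fold enrichment and −log10 p per peak, and the deposited island lists a score per island. The deposited RNA table gives raw counts per gene, used for Kmt5a only. It lists 3900 genes selected by the authors, and its normalized values and fold changes, with 143 other per-sample columns, were not used.

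Overlaps of at least 1 bp, Clopper-Pearson and Newcombe intervals, transcript starts (GENCODE M21) and sequence features (RefSeq GRCm38) were computed in Python 3.11.15 with numpy 2.4.6, scipy 1.17.1, pandas 2.3.3, pysam 0.24.0 and samtools 1.23.1, and tested on simulated data. GC content was taken over 201 bases around the summit, or around the centre where a list gives no summit. No peak ended beyond its chromosome in this genome, and 1 kept peak on an unplaced contig has no sequence or transcript distance. Named sites were the 5 with the highest wild type CTCF, the 5 largest and 5 smallest ratios among sites at or above the median wild type fold enrichment, the 5 with all marks and the highest wild type Smc3, the 5 inside Lamin A/C islands in both conditions with the highest CTCF, and those of the gene lists. The text gives a selection of them, and 1 is not reported here. The sites, gene lists and measures were chosen with earlier results of these data known.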

Additional observations from a re-analysis of the deposited data

How the results depend on the processing

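Each assay has 1 list per condition, so no replicate could be left out. No paired analysis was possible because the results come from lists of peaks per condition and from no test. Of 42 values under alternatives, 16 moved by less than their counting error, or by less than 1.5 times for the number of kept sites, and 26 moved further. The number of kept sites was 1934 where at least 50% of both peaks had to overlap, and 2708 to 3270 under the other rules. With that 50% overlap, the share of kept sites was 45.4% for Setd8-LKO Smc3 (38.4% at distal and 69.0% at promoter sites), 12.6 and 13.0% for H3K27ac in wild type and Setd8-LKO, and 31.1 and 24.97% for ATAC. Setd8-LKO peaks were wider at promoters, so that rule leaves fewer promoter sites (448 of 1934). Within 1000 bp in place of overlap, the shares were 68.2% for Setd8-LKO Smc3, 40.0 and 42.0% for H3K27ac, and 43.8 and 34.8% for ATAC. With equal numbers of peaks in both lists they were 48.9% for Setd8-LKO Smc3 (27.9% at distal and 78.9% at promoter sites) and 30.7% for wild type ATAC. With a −log10 p of at least 20, ATAC was at 32.6 and 23.9%. Islands at or above their median score held 1.74% of kept sites in wild type and 1.12% in Setd8-LKO. The consensus share was 23.6% with no mismatch, 57.9% within 50 bp and 61.4% around the Setd8-LKO summit, and the share at transcript starts 53.2% within 2500 bp and 27.3% within 250 bp. Under each of these alternatives, the Smc3 and ATAC shares over all kept sites were lower in Setd8-LKO than in wild type and the H3K27ac shares higher. The Smc3 share of promoter sites, higher in Setd8-LKO as reported, was lower than in wild type with the 50% overlap (69.0 against 83.3%) and with equal numbers (78.9 against 83.6%). The alternatives for promoter and distal sites were chosen after seeing the data.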
